A study of Mus musculus with 6 samples.

Results

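Expression of 10 genes of the Lin28/let-7 axis and its fetal growth programme was followed in the embryonic mouse pancreas, namely *Lin28a*, *Lin28b*, *Igf2bp1*, *Igf2bp2*, *Igf2bp3*, *Hmga1*, *Hmga2*, *Arid3a*, *Trim71* and *Mycn*. They were named by symbol and found by Ensembl identifier, and all 10 were present among the 37224 genes of the count table. RNA came from total pancreas of wild-type (wt) C57/Bl6J embryos at 13.5 and 15.5 days post coitum (dpc), with 3 samples per stage and tissue of up to 3 embryos in each. Neither stage carried a mutation, a transgene or a treatment, so embryonic age was the only labelled difference. Because embryos were pooled, the spread between samples is that between pools. The comparison gives the difference in relative mRNA level of each gene between these ages. They fall around the secondary transition, the wave of differentiation in which acinar and endocrine cells form.

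LIN28A and LIN28B are RNA-binding proteins of early embryonic and fetal cells. They bind the precursors of the let-7 microRNAs and keep them from being processed, LIN28A by recruiting terminal uridylyl transferases. Mature let-7, when it accumulates, pairs through its seed with sites in 3′ untranslated regions (3′ UTRs) and lowers the mRNAs of *Lin28a* and *Lin28b* themselves, of the IGF2BP RNA-binding proteins, of the chromatin protein HMGA2, of ARID3A and of the ubiquitin ligase TRIM71, and in this way the axis forms a double-negative loop. In whole animals the axis is known for effects on body growth and glucose metabolism, and *Mycn* encodes a transcription factor of growing embryonic progenitors.

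Total counts were 10546028 to 16389237 per sample. Markers of the labelled tissue were present, with all 10 acinar, 8 epithelial and 10 endocrine markers above the filter on low counts. The 15.5 dpc samples differed more among themselves than the 13.5 dpc samples. Between 15.5 dpc replicates 1 and 2 the ratio of counts followed exon length, with Spearman's rho of 0.59 across genes, which are not independent replicates. Of 15578 genes tested, 10.7% were called lower and 11.6% higher at 15.5 dpc, at an adjusted p at or below 0.05. Lower genes were 47.9% of these calls, and 72.3% when samples were scaled by library size only. That scaling called 7 of the 10 genes lower, against 18.9% of all genes tested.

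The let-7 microRNAs are listed first because their seed defines the sites looked for in the 10 genes. All 9 mature sequences of the family in RefSeq (GRCm38.p6) carried the same seed, bases 2 to 8, shown in capitals. The 4 printed below were taken to show where the rest of the sequence varies. They lie at chr13:48538239-48538260 (minus strand, let-7a), chr17:17830366-17830387 (plus, let-7e), chr9:106178846-106178867 (plus, let-7g) and chrX:151913229-151913250 (plus, miR-98).
mmu-let-7a-5p: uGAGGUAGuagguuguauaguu
mmu-let-7e-5p: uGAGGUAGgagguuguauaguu
mmu-let-7g-5p: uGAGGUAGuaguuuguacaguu
mmu-miR-98-5p: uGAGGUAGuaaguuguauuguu
Mature microRNAs are not measured in poly(A)-selected mRNA libraries, and none of the 10 let-7 precursor genes in the table reached the filter. Of these, 5 had 0 counts in every sample, and the highest single value was 4 counts, for *Mirlet7i* in 15.5 dpc replicate 2.

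The complement of the seed, CTACCTC, was searched on the sense strand of the longest annotated 3′ UTR of each gene (GENCODE M21, mm10), and no other motif was searched. It was present in 9 of the 10 genes and absent from the 913 bases of *Mycn*. Of all 21027 genes with a 3′ UTR, 9.02% held at least 1 match and 1.07% at least 2. Since several of the 10 are textbook let-7 targets, this count describes why they are grouped and is not a finding. *Lin28b*, *Igf2bp1*, *Hmga2* and *Trim71* held 4 matches each, a number that 12 of all 21027 genes reached. In 3′ UTRs within 20% of the same length, 4 or more matches were held by 0.236% of genes for *Lin28b*, 0.355% for *Igf2bp1*, 0.134% for *Hmga2* and 0.505% for *Trim71*. *Lin28a* and *Arid3a* held 2 each, and *Igf2bp2*, *Igf2bp3* and *Hmga1* held 1 each. The match nearest the stop codon of each gene is given with the bases before it and the base after it, with the seed match in capitals.
Lin28a: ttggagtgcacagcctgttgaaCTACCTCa
Lin28b: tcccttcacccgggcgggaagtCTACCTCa
Igf2bp1: aggcagtgctgtgcgaagtaaaCTACCTCa
Igf2bp2: gagaaaaacacacaaataaaagCTACCTCa
Igf2bp3: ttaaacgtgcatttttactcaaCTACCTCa
Hmga1: catcttctcctctgttcacaaaCTACCTCt
Hmga2: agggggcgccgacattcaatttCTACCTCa
Arid3a: cacatgcaaggcaagtttctttCTACCTCa
Trim71: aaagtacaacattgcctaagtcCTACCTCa
The printed stretches lie at chr4:134005189-134005218 (*Lin28a*, minus strand), chr10:45381022-45381051 (*Lin28b*, minus), chr11:95961778-95961807 (*Igf2bp1*, minus), chr16:22059473-22059502 (*Igf2bp2*, minus), chr6:49086787-49086816 (*Igf2bp3*, minus), chr17:27563270-27563299 (*Hmga1*, plus), chr10:120364224-120364253 (*Hmga2*, minus), chr10:79953888-79953917 (*Arid3a*, plus) and chr9:114512472-114512501 (*Trim71*, minus). In 8 of these genes the match was followed by an A, the base that lies opposite the first base of the microRNA. All 4 matches of *Trim71* were followed by an A, 3 of 4 in *Igf2bp1*, and 1 of 4 in *Hmga2* and in *Lin28b*. Of the *Trim71* matches, the third and the fourth lie beyond the exons that were counted, which end at 114511275 on the mm10 map.

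*Hmga2*, *Mycn*, *Lin28b*, *Lin28a*, *Igf2bp1* and *Hmga1* fell between 13.5 and 15.5 dpc, from 1.43-fold for *Hmga1* to 3.04-fold for *Hmga2*, with *Lin28a* left aside. *Lin28a* was at the counting floor at 15.5 dpc, and its mean at 13.5 dpc was 3.99-fold that floor. *Igf2bp2*, *Igf2bp3*, *Trim71* and *Arid3a* did not pass the test. RNA was of whole pancreas, so fewer cells of a type and less RNA per cell cannot be told apart. Called lower were 6 of the 10, against 10.7% of all genes tested, and none was called higher, against 11.6%. In 8 of the 10, all but *Arid3a* and *Trim71*, every 15.5 dpc sample lay below every 13.5 dpc sample, against 23.6% of all genes. With an added limit on size (a fold below 0.6 or above 1.6, over 100 normalised counts at either stage and an adjusted p at or below 0.1), *Igf2bp1*, *Hmga2* and *Mycn* were lower, against 3.9% of protein-coding genes. The median log2 fold change of the 10 was -0.69, also with *Lin28a* set to its fold over the floor, and that of all genes tested was -0.01. These counts are a description. *Lin28a*, *Lin28b* and *Trim71* passed the filter on low counts through their 13.5 dpc samples, with 0, 2 and 2 of the 3 samples at 15.5 dpc reaching it. Of the 7 genes with at least 10 counts in every sample, 4 were called lower, against 10.8% of the genes held to that limit. The count also depended on single samples. Leaving out 1 of the 13.5 dpc samples gave 3 (replicate 1), 4 (replicate 2) and 2 (replicate 3) genes, in fits that called 3.29%, 3.74% and 3.84% of all genes lower. Leaving out replicate 1, 2 or 3 of 15.5 dpc gave 6, 10 and 4 genes, in fits that called 12.8%, 23.3% and 3.65% of all genes lower.

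**Figure D1:**
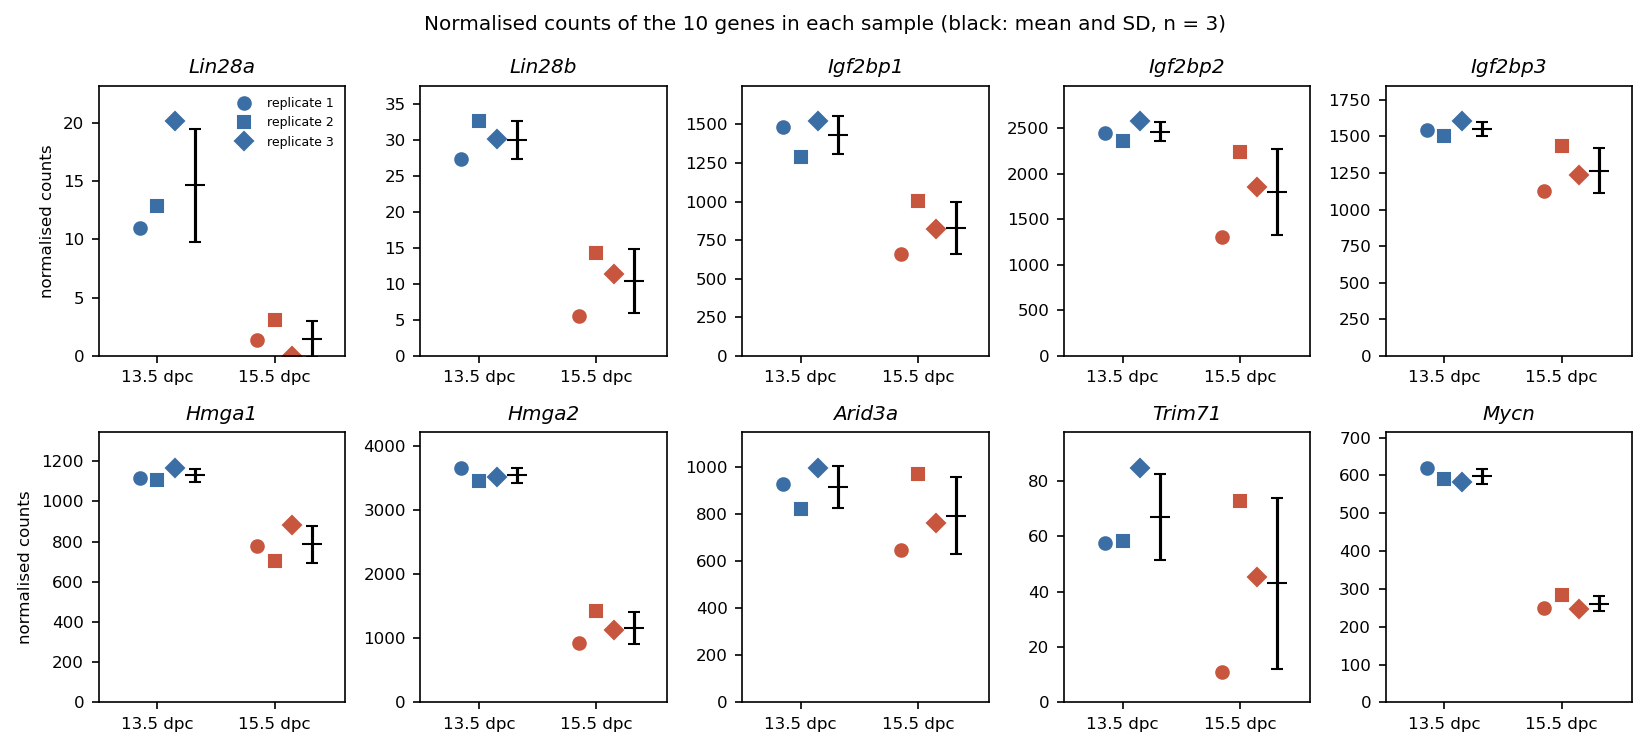
Normalised counts (vertical axes, from 0) of each of the 10 genes in the 3 samples at 13.5 dpc (blue) and the 3 at 15.5 dpc (red), with marks for replicates 1 to 3 and the mean and SD in black. The stages are apart for 8 genes and overlap for *Arid3a* and *Trim71*, and replicate 2 is the highest 15.5 dpc sample in 9 of the 10. *Hmga2* stands at 927 to 1432 against 3448 to 3659 at 13.5 dpc.

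The 2 LIN28 genes were the least abundant of the set. *Lin28a* (ENSMUSG00000050966, chr4:134003330-134018841, minus strand) had raw counts of 12, 15 and 28 in 13.5 dpc replicates 1, 2 and 3 and of 1, 3 and 0 at 15.5 dpc. Scaled to a common library size these were 10.9, 12.9 and 20.1 normalised counts at 13.5 dpc and 1.38, 3.07 and 0 at 15.5 dpc. Every 15.5 dpc sample was at or below the floor of 3 counts per library, and every 13.5 dpc sample was above it. The mean level at 13.5 dpc was 3.99-fold the mean floor at 15.5 dpc, and the test between the stages gave an adjusted p of 0.0141. This ratio of means is not a limit for single samples, since the lowest 13.5 dpc sample was 3.56-fold the highest 15.5 dpc sample. The fitted fold change of *Lin28a* depends on the prior count and is no bound. Without 13.5 dpc replicate 3, the highest sample, the adjusted p was 0.0568.

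*Lin28b* (ENSMUSG00000063804, chr10:45376620-45470201, minus strand) had raw counts of 30, 38 and 42 at 13.5 dpc and of 4, 14 and 9 at 15.5 dpc. In normalised counts it stood at 27.3, 32.6 and 30.2 at 13.5 dpc and at 5.54, 14.3 and 11.3 at 15.5 dpc. The highest 15.5 dpc sample had less than any 13.5 dpc sample, and replicate 1 was the lowest of all. *Lin28b* fell by 1.48 on the log2 scale (SE 0.30, adjusted p = 0.0148), or 2.78-fold. The call was lost without any 1 of the 13.5 dpc samples or 15.5 dpc replicate 3, with adjusted p of 0.0540, 0.0659, 0.0633 and 0.0617, while the log2 fold change stayed between -1.78 and -1.21 in all leave-one-out fits. Neither LIN28 gene exceeded 42 reads in any sample.

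The IGF2BP genes encode 3 related proteins that bind mRNAs such as *Igf2*, *Actb* and *Myc* and affect their stability, transport or translation. *Igf2bp1* (ENSMUSG00000013415, chr11:95957163-96005940, minus strand) had 1485, 1290.4 and 1521 normalised counts at 13.5 dpc and 662, 1003 and 824 at 15.5 dpc. The stages did not overlap, and replicate 2 was the 15.5 dpc sample closest to the earlier stage. *Igf2bp1* fell by 0.79 on the log2 scale (SE 0.16, adjusted p = 0.0140), or 1.72-fold. Its adjusted p was 0.0677 or 0.0681 when replicate 1 or 3 of the earlier stage was left out, and 0.0658 when replicate 3 of the later stage was. *Igf2bp1* has the longest exons of the 10 genes, 9682 bases, and with the trend of each library with exon length removed its log2 fold change was -0.52 (adjusted p = 0.00164).

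*Igf2bp2* (ENSMUSG00000033581, chr16:22059009-22163299, minus strand), the member of the family that is also known from adult tissues and from type 2 diabetes genetics, had 2447, 2361 and 2574 normalised counts at 13.5 dpc and 1306, 2236 and 1849 at 15.5 dpc. All 15.5 dpc samples were lower, but replicate 2 by a small margin. The log2 fold change was -0.45 (SE 0.18, adjusted p = 0.112), which did not pass the test. Without 15.5 dpc replicate 2 it was -0.63 (adjusted p = 0.00820), and without 15.5 dpc replicate 1 it was -0.27 (adjusted p = 0.0746).

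*Igf2bp3* (ENSMUSG00000029814, chr6:49085221-49214954, minus strand), an oncofetal protein, stood at 1542, 1506 and 1603 normalised counts at 13.5 dpc and at 1128, 1434 and 1237 at 15.5 dpc. Here too the stages were apart, with 15.5 dpc replicate 2 nearest to the 13.5 dpc samples. Its log2 fold change was -0.29 (SE 0.11, adjusted p = 0.0934), and -0.38 without 15.5 dpc replicate 2 (adjusted p = 0.0109). *Igf2bp3* shares 1531 bases, 35.2% of its exons, with *Malsu1* on the opposite strand. *Malsu1* had 258 to 379 counts per sample against 815 to 2232 for *Igf2bp3*, and the counts behave as strand-specific.

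The HMGA proteins bind the minor groove of AT-rich DNA and shape chromatin in embryonic cells. *Hmga2* (ENSMUSG00000056758, chr10:120361275-120476469, minus strand) had the most reads of the 10 genes at 13.5 dpc, with 3659, 3448 and 3507 normalised counts, and 927, 1432 and 1127 at 15.5 dpc. The samples of each stage were well apart from the other stage, and the lowest 13.5 dpc sample had 2.41-fold more than the highest 15.5 dpc sample. *Hmga2* fell 3.04-fold, to 32.9% of its earlier level (SE of the log2 fold change 0.16, adjusted p = 0.00105). The call held in all 17 alternative fits, with log2 fold changes of -1.80 to -1.43. In the order of all genes by log2 fold change, *Hmga2* was number 128 of 15578 from the lowest.

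*Hmga1* (ENSMUSG00000046711, chr17:27556620-27563674, plus strand) had 1114, 1105 and 1167 normalised counts at 13.5 dpc and 776, 702 and 884 at 15.5 dpc. Unlike most of the set it was highest in replicate 3 and lowest in replicate 2 of the later stage. It fell by 0.52 on the log2 scale (SE 0.11, adjusted p = 0.0154), or 1.43-fold. The adjusted p was 0.0721, 0.0665 and 0.0762 without 13.5 dpc replicates 1, 2 and 3. Of the 50-base windows of its transcripts, 54.95% also occur in another gene, chiefly *Hmga1b*, a near-identical copy with 466 to 813 counts per sample, and only unique alignments were counted, so the level of *Hmga1* is uncertain and may be too low. For no other gene of the set were over 1% of the windows shared.

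MYCN, with MYC and MYCL, forms the MYC family of transcription factors. *Mycn* (ENSMUSG00000037169, chr12:12936096-12941914, minus strand) had 621, 592 and 583 normalised counts at 13.5 dpc and 250.5, 283 and 248 at 15.5 dpc. Samples of a stage lay close together at both ages, at 598 ± 19.8 (SD, n = 3) and 261 ± 19.7 (SD, n = 3). *Mycn* fell by 1.20 on the log2 scale (SE 0.10, adjusted p = 0.000716), or 2.29-fold, and was called lower in all 17 alternative fits, with log2 fold changes of -1.41 to -1.16. Its 3′ UTR is the one without a match to CTACCTC, and other forms of let-7 site were not searched.

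*Arid3a* (ENSMUSG00000019564, chr10:79927043-79955018, plus strand), a DNA-binding protein of fetal blood and other embryonic cells, had 926, 819.7 and 997 normalised counts at 13.5 dpc and 646, 969 and 762 at 15.5 dpc. The stages overlapped, since 15.5 dpc replicate 2 exceeded 2 of the 13.5 dpc samples. Its log2 fold change was -0.20 (SE 0.16, adjusted p = 0.370), and it was -0.36 without 15.5 dpc replicate 2 (adjusted p = 0.0381) and -0.075 without 15.5 dpc replicate 1 (adjusted p = 0.692).

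*Trim71* (ENSMUSG00000079259, chr9:114511275-114564369, minus strand), the mouse counterpart of the worm heterochronic gene lin-41, stood at 57.4, 58.3 and 84.8 normalised counts at 13.5 dpc and at 11.1, 72.6 and 45.3 at 15.5 dpc. Replicate 1 held 8 reads and replicate 2 held 71, so the later stage spanned 6.56-fold and took in the lower 13.5 dpc samples. The log2 fold change was -0.59 (SE 0.49, adjusted p = 0.391). It ranged from -1.21 without 15.5 dpc replicate 2 (adjusted p = 0.0466) to -0.17 without 15.5 dpc replicate 1 (adjusted p = 0.663), and was -0.39 without 13.5 dpc replicate 3 (adjusted p = 0.694).

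Among the 15.5 dpc samples, replicate 1 was the lowest in 7 of the 10 genes and replicate 2 the highest in 9 of the 10. Acinar markers took the opposite order, with summed levels of 78805, 48603 and 33763 CPM (library-scaled counts) in replicates 1, 3 and 2, against 5968 to 7096 at 13.5 dpc. The order from replicate 1 over 3 to 2 was upward in 7 of the 10 genes, in 5 of 10 mesenchymal markers (*Col1a1*, *Col1a2*, *Col3a1*, *Pdgfra* and *Pdgfrb*) and in 0 of 10 acinar markers, and downward in 2 mesenchymal markers, *Vim* and *Meox1*. In lists given below, it was upward in 7 of 7 Argonaute and GW182 genes and in 16 of 22 other let-7 targets. Of 13 let-7 processing genes 7 took it too. Of 7 other HMG box and HMGN genes, it was upward in 0 and downward in 5. The share of all genes with this order was not computed. Summed over the mesenchymal markers, most of whose counts are collagen, the levels were 7121, 9209 and 10559 CPM in replicates 1, 3 and 2, against 9626 to 10889 at 13.5 dpc. With the exon-length trend of each library removed, 6 of the 10 genes were called lower, against 14.7% of all genes tested, and the log2 fold changes of the 9 genes other than *Lin28a* ran from -1.43 for *Hmga2* to -0.07 for *Arid3a*. The part of cell composition in the falls was not tested.

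**Figure D2:**
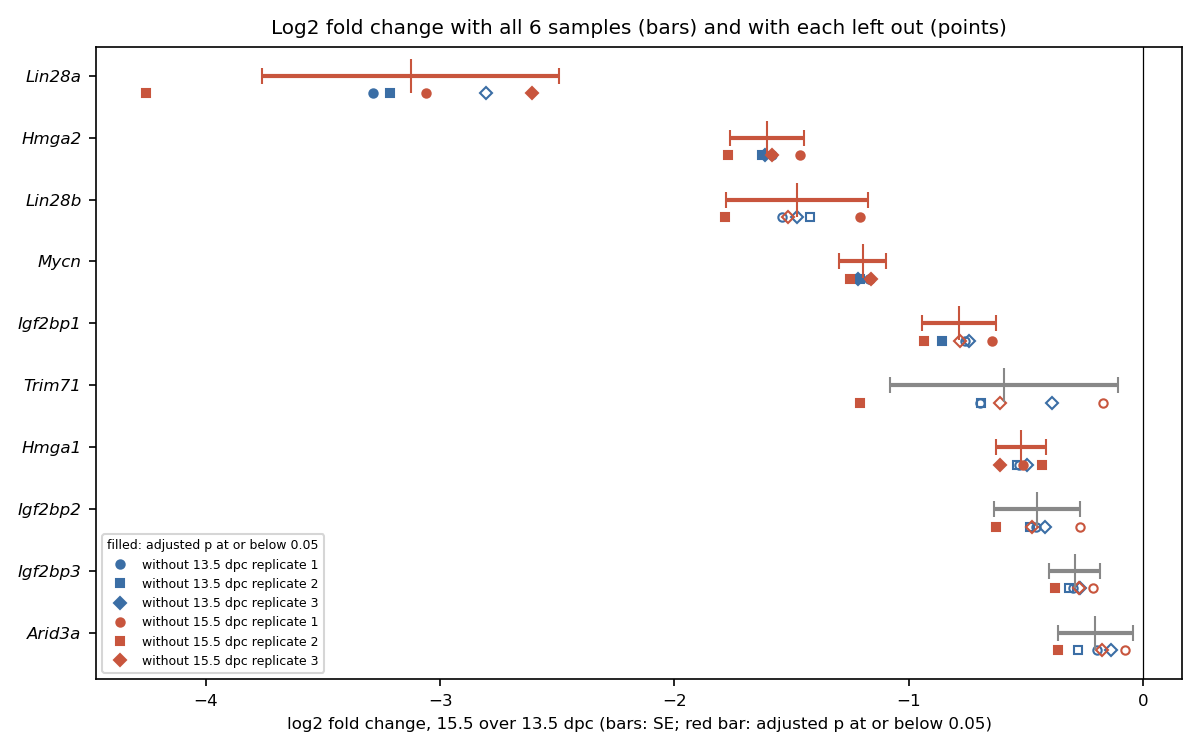
Log2 fold change from 13.5 to 15.5 dpc (horizontal axis) of each gene with all 6 samples (bar and SE, red where the adjusted p was at or below 0.05) and with each sample left out (points, filled where called). *Hmga2* and *Mycn* are filled in all 6 leave-one-out fits, every point lies below 0, and the red square, without 15.5 dpc replicate 2, is filled for all 10 genes.

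Per kb of exon, levels could be compared between genes, except that those of *Hmga1* may be too low. At 13.5 dpc, in TMM-scaled CPM per kb, the order was *Hmga1* (44.9 ± 1.33, SD, n = 3), *Hmga2* (41.3 ± 1.28), *Igf2bp3* (28.2 ± 0.90), *Igf2bp2* (27.3 ± 1.19), *Mycn* (14.4 ± 0.48), *Arid3a* (13.01 ± 1.27), *Igf2bp1* (11.7 ± 1.01), *Trim71* (1.02 ± 0.24), *Lin28b* (0.44 ± 0.04) and *Lin28a* (0.29 ± 0.10). *Igf2bp3* and *Igf2bp2* overlapped in their samples, as did *Mycn* with *Arid3a* and *Arid3a* with *Igf2bp1*. At 15.5 dpc the order became *Hmga1* (31.3 ± 3.65), *Igf2bp3* (23.1 ± 2.82), *Igf2bp2* (19.9 ± 5.18), *Hmga2* (13.6 ± 2.97), *Arid3a* (11.3 ± 2.33), *Igf2bp1* (6.78 ± 1.397), *Mycn* (6.26 ± 0.47), *Trim71* (0.66 ± 0.47), *Lin28b* (0.15 ± 0.07) and *Lin28a* (0.03 ± 0.03). *Hmga2* thus stood above *Igf2bp2* and *Igf2bp3* at 13.5 dpc and below both at 15.5 dpc. At the later stage *Igf2bp3* overlapped with *Igf2bp2*, *Igf2bp2* with *Hmga2*, *Hmga2* with *Arid3a*, *Igf2bp1* with *Mycn* and *Trim71* with *Lin28b*.

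Ratios between relatives within each sample do not depend on library size, but can move with the exon-length trend of the libraries where the relatives differ in length. The level of *Hmga2* per kb was 0.96, 0.92 and 0.88 times that of *Hmga1* at 13.5 dpc and 0.35, 0.60 and 0.37 times at 15.5 dpc, a log2 difference of -1.10, where the limit on the *Hmga1* counts also holds. *Mycn* stood at 0.37, 0.32 and 0.33 times the level of *Myc* at 13.5 dpc and at 0.10, 0.14 and 0.11 times at 15.5 dpc, a log2 difference of -1.57. Within this pair *Mycn* fell and *Myc*, the family member of most growing cells, rose by 0.38 on the log2 scale (adjusted p = 0.0433). The call for *Myc* was lost without any 1 of the 13.5 dpc samples or 15.5 dpc replicate 3, with an adjusted p of up to 0.172. *Igf2bp1* over *Igf2bp2* (log2 difference -0.32) and over *Igf2bp3* (-0.51) was lower in every 15.5 dpc sample than in every 13.5 dpc sample. *Igf2bp2* over *Igf2bp3* was 0.96 to 0.98 at 13.5 dpc and 0.71, 0.95 and 0.91 at 15.5 dpc, where the highest later sample nearly reached the earlier ones. *Arid3a* over *Arid3b* was higher at 15.5 dpc, with a log2 difference of 0.54. In all 7 pairs the stages did not overlap, and a two-sided exact permutation test gave p = 0.1 (adjusted over 7 pairs, 0.1), the smallest value that 3 against 3 samples allow. Removal of the exon-length trend was planned for single genes and was extended to these differences after the data were seen. With it, the difference of the fitted log2 fold changes was -0.78 instead of -1.08 for *Hmga2* over *Hmga1* and -0.31 instead of -0.49 for *Igf2bp1* over *Igf2bp3*. For *Igf2bp2* over *Igf2bp3* it was -0.054 instead of -0.16, and for *Mycn* over *Myc* -1.51 instead of -1.57. It kept its sign in all 7 pairs.

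**Figure D3:**
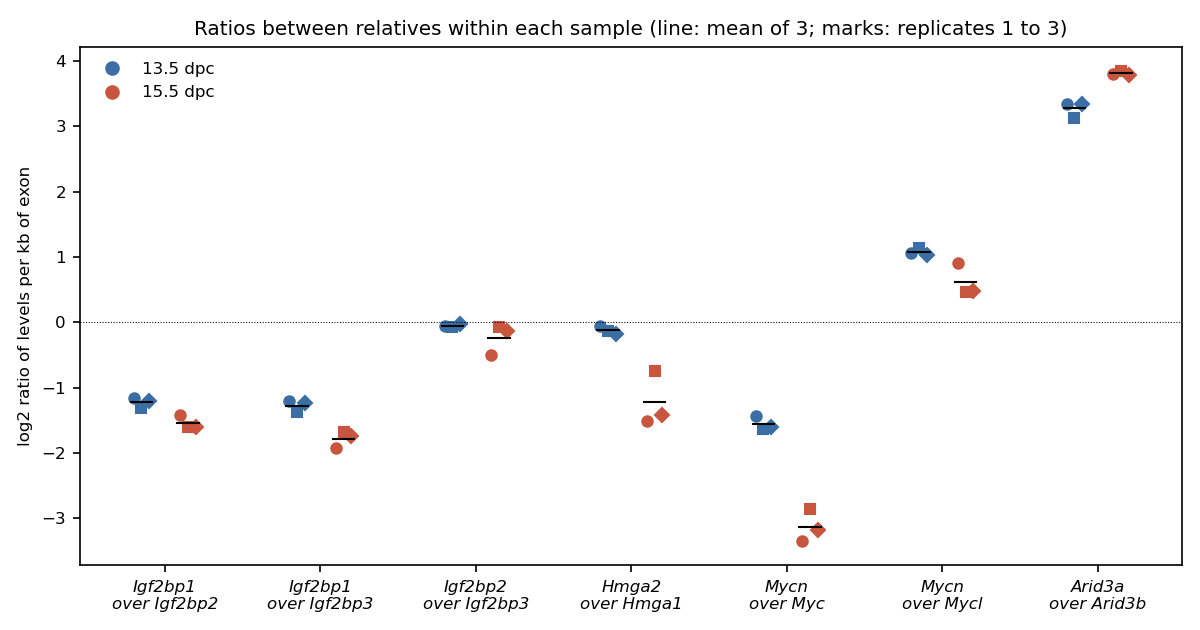
Log2 ratio of levels per kb of exon between relatives (vertical axis) in each sample at 13.5 dpc (blue) and 15.5 dpc (red), with the mean as a line. The stages are apart in all 7 pairs, most in *Mycn* over *Myc*, which went from 0.32 to 0.37 down to 0.10 to 0.14 as a linear ratio.

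The axis was followed further in lists of its other genes. Of 77 such genes tested, 18 fell and 6 rose, where 10.7% and 11.6% of all genes tested did, with a median log2 fold change of -0.27 against -0.01 for all genes. Each of the 24 called genes kept its direction when any 1 sample was left out, but only *Igdcc3*, *Ccnd1*, *Cd44* and *Plagl1* kept the call in all 6 such fits. The remaining 20 lost it without 3 or more of the samples, and a called gene named from these lists is of that kind unless it is one of these 4.

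Among 13 genes of let-7 processing and of the enzymes that act with LIN28, 2 fell and 11 did not pass the test, with a median of -0.32. With the exon-length trend removed the median was -0.15, with 4 lower and 1 higher, against 14.7% and 18.1% of all genes in that fit. *Hnrnpa1*, which binds let-7 precursors, fell by 0.48 on the log2 scale (adjusted p = 0.0109). *Prkra*, a partner of Dicer, fell by 0.41 (adjusted p = 0.0420). *Tut4* and *Tut7*, the uridylyl transferases recruited by LIN28A, had log2 fold changes of -0.74 (adjusted p = 0.0736) and -0.32 (adjusted p = 0.269). *Dis3l2*, the nuclease that degrades uridylated let-7 precursors, was at 0.17 (adjusted p = 0.356), and *Drosha*, the first enzyme of microRNA maturation, at -0.49 (adjusted p = 0.0678). Of the Argonaute and GW182 genes, through which microRNAs act, 0 of 7 were called. Without 15.5 dpc replicate 2, 8 of the 13 and 5 of the 7 were called lower, against 23.3% of all genes. Without any 1 of the 13.5 dpc samples or 15.5 dpc replicate 3, at most 1 of the 13 and 0 of the 7 were, against 3.29% to 3.84%. Of 2 let-7 host genes tested, 1 fell, *Wdr82*, the host of let-7g, by 0.46 on the log2 scale (adjusted p = 0.0201). *Huwe1*, the host of miR-98, had a log2 fold change of -0.41 (SE 0.30, adjusted p = 0.341), and its stages overlapped.

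Among 22 other let-7 target genes, 8 fell, 1 rose and 13 did not pass the test, with a median of -0.35. With the exon-length trend removed the median was -0.24, with 8 lower and 4 higher, against the same 14.7% and 18.1% of all genes. *Igdcc3*, an immunoglobulin superfamily receptor, had 117, 87.5 and 82.6 normalised counts at 13.5 dpc and 26.3, 47.0 and 37.8 at 15.5 dpc, with no overlap. It fell by 1.34 on the log2 scale (SE 0.24, adjusted p = 0.00953). *Tgfbr1*, a TGF-beta receptor, fell by 0.87 (adjusted p = 0.0202), as did the repressor *Hic2*, by 0.87 (adjusted p = 0.0187). *Arid3b*, the close relative of *Arid3a*, fell by 0.74 (adjusted p = 0.0186). *Ccnd1*, cyclin D1, fell by 0.60 (adjusted p = 0.00569). Of the *Ras* genes, *Nras* fell by 0.33 (adjusted p = 0.0276), while *Hras* had a log2 fold change of 0.62 (adjusted p = 0.0791). When any 1 of the 13.5 dpc samples or 15.5 dpc replicate 3 was left out, 2 of the 22 were called lower, against 3.29% to 3.84% of all genes. When 15.5 dpc replicate 2 was left out, 14 were, against 23.3% of all genes.

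Of 6 RNAs known to be bound by IGF2BP proteins, *Cd44* rose by 1.05 on the log2 scale (adjusted p = 0.00150), *Myc* rose as given above, and *Btrc* fell by 0.39 (adjusted p = 0.0186). *Igf2* itself had a log2 fold change of -0.27 (adjusted p = 0.0968), with every 15.5 dpc sample lower. *H19*, the noncoding RNA imprinted together with *Igf2*, had one of 0.36 (adjusted p = 0.0618), with every 15.5 dpc sample higher. Both are also counted in the fetal growth list. Of 12 genes of the Myc, Max and Mlx network, *Mycl* fell by 0.72 (adjusted p = 0.0199) and *Mnt*, a repressor that competes for Max, fell by 0.45 (adjusted p = 0.0166). *Mlx* (0.57), *Mlxipl* (0.48), *Myc* and *Mxd4* (0.32) rose, with a median of 0.08 for the list. Of 7 other HMG box and HMGN genes, *Hmgb3* fell by 0.63 (adjusted p = 0.0135) and *Hmgn5* rose by 0.60 (adjusted p = 0.0231). Of 10 further genes of the fetal growth programme, 4 fell and 0 rose, with a median of -0.31, or -0.16 with the exon-length trend removed. Over all genes tested 10.7% fell and 11.6% rose, which also stands beside the other lists of this paragraph. Without any 1 of the 13.5 dpc samples or 15.5 dpc replicate 3, 1 of the 10 was called lower, against 3.29% to 3.84% of all genes. Without 15.5 dpc replicate 2, 6 were, against 23.3%. *Plagl1*, an imprinted transcription factor, fell by 0.78 on the log2 scale (adjusted p = 0.00257), followed by *E2f3* (0.44), *Mest* (0.33) and *Ezh2* (0.29).

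**Figure D4:**
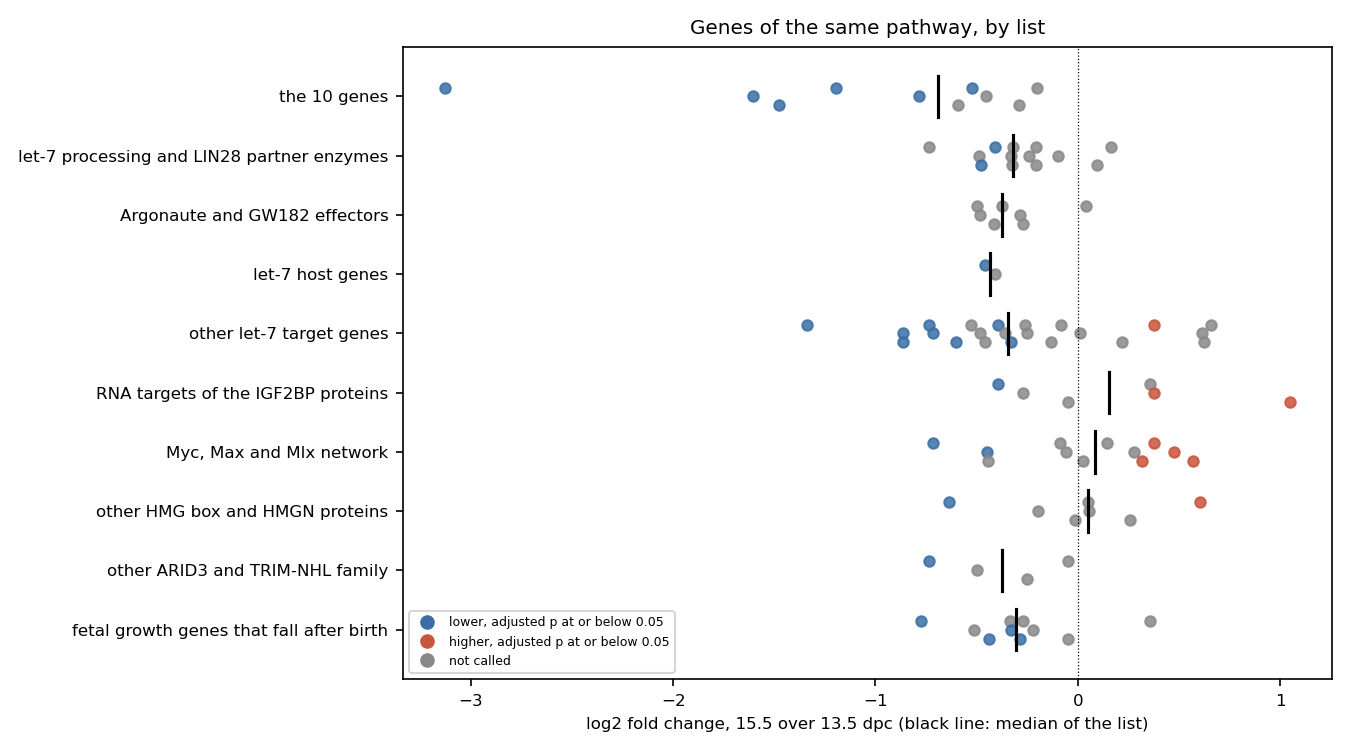
Log2 fold change from 13.5 to 15.5 dpc (horizontal axis) of the tested genes of each list, 1 point a gene, coloured where the adjusted p was at or below 0.05, with the list's median as a line. The 10 genes have a median of -0.69, with *Lin28a* at a fitted value past its counting floor and *Hmga2* next, whereas the other let-7 targets have a median of -0.35 and those of the Myc network lie on both sides of 0.

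Over all genes, the number of let-7 seed matches in the 3′ UTR was set beside the log2 fold change as a description. The median was -0.01 for 12474 tested genes with 0 matches, -0.11 for 1307 with 1, -0.15 for genes with 2 and -0.50 for 28 genes with 3 or more. Leaving out the 10 genes, the last class had 24 genes and a median of -0.38. Genes with more matches had longer 3′ UTRs, with medians of 1073, 2181, 3518 and 4459.5 bases. With the exon-length trend removed, the medians of the 4 classes were 0.02, -0.0012, -0.03 and -0.32, and that of the last was -0.25 without the 10 genes.

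Cell type markers are given beside these values, with 10.7% of all genes called lower and 11.6% higher. Of 7 embryonic erythroid markers tested, 4 fell and 1 rose, and their summed level was 927 to 1147 CPM at 13.5 dpc and 88.0 to 120.2 at 15.5 dpc. None of the markers was at 0 in all samples. Acinar markers rose in 10 of 10. The call for *Pnlip* was lost without 13.5 dpc replicate 1 or 2 or 15.5 dpc replicate 1 or 3, with an adjusted p of up to 0.137. Of 8 epithelial markers 3 rose and 1 (*Sox9*) fell, with sums of 2076 to 2182 and 2675 to 3397 CPM, without overlap. Of 10 endocrine markers 4 rose (*Ins1*, *Ins2*, *Sst* and *Iapp*) and 2 fell (*Chgb* and *Neurog3*), with overlapping sums of 2385 to 2569 and 2521 to 4175 CPM. *Gcg*, which was not called, made up 28.1% to 52.9% of these sums. The other 9 together stood at 1125 to 1241 and 1654 to 3002 CPM, without overlap. Of 8 neural and glial markers 3 fell and 1 rose, with sums of 166 to 176 and 193 to 226 CPM. The higher sum was that of *Ret*, since the other 7 together stood at 112 to 118 CPM at 13.5 dpc and at 85.4 to 93.0 at 15.5 dpc. Of 10 mesenchymal markers 2 fell and 2 rose. Of 8 liver markers 3 fell and 1 rose, with a median of -0.64 and sums of 543 to 597 and 545 to 927 CPM. *Ttr* made up 67.7% to 84.0% of these sums and was not called (log2 fold change 0.48, adjusted p = 0.152), and the other 7 together stood at 147 to 193 and 138 to 149 CPM. Those that fell were *Serpina1a*, *Fgb* and *Afp*, with log2 fold changes of -2.38, -1.24 and -0.66. Of 8 immune markers 2 fell and 0 rose, with sums of 123 to 128 and 107 to 145 CPM, and of 8 endothelial markers 0 fell and 1 rose. The summed levels of the stages overlapped for mesenchymal, liver and immune markers. Of 10 cell cycle markers 2 rose and 0 fell, with sums of 1871 to 1915 and 1953 to 2151 CPM. Acinar markers aside, 15 of 32 marker calls held with each sample left out in turn and 17 were lost in at least 1 such fit. Among the 15 were *Hbb-y*, *Hbb-bh1*, *Hba-x*, *Krt18*, *Chgb*, *Ins1*, *Ins2*, *Sst*, *Iapp*, *Pdgfra*, *Elavl4*, *Ret*, *Serpina1a* and *Fgb*. None of the immune, endothelial and cell cycle calls held without any 1 of the 13.5 dpc samples or 15.5 dpc replicate 3. *Lin28b*, *Igf2bp1* and *Arid3a* are known in fetal blood cells as well, and the part of these cell types in the falls was not tested.

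The genes whose log2 CPM most resembled those of a called gene over the 6 samples were named by Pearson's r, as a description of samples that share depth and stage. For *Hmga2* they were *Slitrk5*, *Col23a1* and *Col2a1*, with r of 0.9995 to 0.9999, among 184 genes above 0.99. For *Mycn* they were *Nfam1*, *Zfp41* and *Rasl10b*, among 109 such genes, and for *Igf2bp1* they were *Mras*, *Zfyve1* and *Pip5k1a*, among 134. *Lin28b* was most like *Gpr50*, *Slc9a5* and *Rab11fip2*, among 91. *Hmga1*, whose replicates took another order, had 6 genes above 0.99, with *Nrg2*, *Cyp46a1* and *Tlx2* first. Among themselves the 10 genes had pairwise r of 0.36 to 0.99, with a median of 0.87 over 45 pairs.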

How the data were processed

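The authors pooled wt pancreata, selected poly(A) RNA, made strand-specific single-end libraries, aligned the reads to mm10 with GSNAP and counted unique alignments on Ensembl 69 genes with featureCounts 1.4.6. The deposited values are raw counts, with an exon length per gene from the same tool in another unit (bases). The strand setting is not given in the sources used here. Of 149 genes nested within exons on the opposite strand, 29 had 10 counts or more, and of 323 nested on the same strand 0 had, so counts were read as strand-specific.

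Symbols matched 35449 of 37224 identifiers. In R 4.3.3, genes were filtered with filterByExpr, scaled with TMM factors (0.847 to 1.08) and compared between stages over 6 samples, without covariates, with the quasi-likelihood test of edgeR 4.0.16 and Benjamini-Hochberg adjustment over all 15578 genes tested. Adjusted p are from this fit unless an alternative is named beside them, in which case they are from the same test refitted on that alternative's samples, genes or scaling. Those of the ratios between relatives are from an exact permutation test. No 2 samples of a stage agreed within sampling noise (chi-square per gene 1.61 to 63.2). Normalised counts are scaled to one common library size. A floor of 3 counts per library was used where all samples of a stage were at or below it. Lowess trends with exon length used a span of 0.5. Alternatives were other scalings and filters, DESeq2 1.42.0, limma 3.58.1 voom, a replicate block, removal of the length trend and leaving out each sample. On simulated data for this comparison, 198 of 200 changed genes were recovered among 15397, with 11 false calls. Recovery was not split by read depth or by size of change. It is therefore a check of the fitting and does not give the power for single genes of the set. Figures were drawn with Python.

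Named were the 10 genes, up to 4 called genes of each pathway list by size of change plus genes that describe a relative, and the 3 most correlated genes of each called gene with a mean of 10 counts or more (log2 CPM, prior count 2). *Ccnd1*, *Nras*, *Hras*, *Tut4*, *Tut7*, *Dis3l2*, *Drosha*, *Mxd4*, *Igf2*, *H19*, *Huwe1*, *Mirlet7i* and the marker genes named fall outside this rule and were chosen after their values were seen. The 10 genes and the lists were chosen with earlier results of these data known.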

Additional observations from a re-analysis of the deposited data

How the results depend on the processing

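Of 167 fits of single genes of the set under the alternatives, 151 kept their direction and side of the threshold, 11 lost the call, 5 gained it and 0 changed direction. *Hmga2* and *Mycn* kept the call throughout, with adjusted p of up to 0.0111 and 0.00990. The number of genes of the set called was 6 in the main analysis, 3 with the added limit on size and 2 to 10 with each sample left out. Over all genes, 3467 were called, 1454 with the added limit among protein-coding genes, and 1235 to 7620 with each sample left out. The replicate numbers did not pair the samples (correlations of deviations of 0.22, -0.22 and 0.04 for equal numbers), and with the number as a block 6 of the set and 2676 of all genes were called. Under scaling by library size only, the genome-wide median was -0.22 instead of -0.01 (log2), lower genes made up 72.3% instead of 47.9% of the calls, and the fit called *Igf2bp3* lower too (adjusted p = 0.0448). With the length trend removed, the share was 44.9%. The causes were not tested. Depth limits *Lin28a*, *Lin28b* and *Trim71*, which had 0 to 118 reads per sample.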
